A study of Mus musculus with 92 samples.

Results

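The genes described here mark T cells, natural killer (NK) cells, B cells and plasma cells, measured in whole mouse liver by RNA sequencing. They were taken as a list of 32 gene symbols, 21 for T and NK cells and 11 for B and plasma cells. Of these, 28 had an identifier in the authors' comparison tables, and 26 of those had usable counts: 16 T and NK cell genes and 10 B and plasma cell genes, among 17275 usable gene lines in all. Il2rb, a receptor chain for interleukins of T and NK cells, and Jchain, the joining chain of secreted antibodies, had no usable count line and are given from the authors' deposited tables. Cd5, Gzmk, Klrd1 and Klrb1c, which are T and NK cell genes, were found only through their GENCODE symbols and are described apart.

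The livers came from HET3 mice, a genetically heterogeneous stock, so that animals within a group differ in genotype. Mice were fed 1 of 3 diets, named Control, Low Amino Acid and Low Isoleucine, and were killed at 6 or 24 months of age after a fast of 16 h. Per the labels, feeding began at 9 weeks of age in mice killed at 6 months and at 6 months in mice killed at 24 months, whereas the series' design text gives 13 weeks on diet for both. Counts were compared in females only: 8 libraries of 6-month Control, 8 of 6-month Low Amino Acid, 7 of 6-month Low Isoleucine, 8 of 24-month Control, 7 of 24-month Low Amino Acid and 8 of 24-month Low Isoleucine. Library totals ran from 7.82 M estimated counts (M stands for 1e+06; 24-month Low Isoleucine replicate 5) through a median of 22.6 M to 27.6 M, with a second lowest of 14.3 M. A further library labelled 6-month Low Isoleucine female held 50.8 CPM (counts scaled to a common library size) of the Y-linked gene Kdm5d, against 0.64 CPM in the next library, and was left out. The label liver was checked against summed hepatocyte markers, which lay between 68922 and 215725 CPM in the libraries used.

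T cells recognise peptides through an antigen receptor whose signal is carried by the CD3 chains, and they divide into CD4 and CD8 lineages; NK cells and CD8 T cells kill target cells with granzymes and perforin. B cells signal through a surface antibody coupled to the CD79 chains, and plasma cells are their antibody-secreting descendants. The healthy liver holds resident NK cells, T cells and some B cells among its sinusoids, and these make up a small part of its cells, so their transcripts are scarce in whole-tissue RNA.

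Promoter sequence from RefSeq (GRCm38.p6, 250 bases before to 50 after each start) was available for 19 of the 32 listed genes. A set of 7 motifs was searched on both strands. For octamer-binding factors these were ATGCAAAT, its part TGCAAAT, and its other part, ATGCAAA, which overlap each other. For RUNX factors the motif was TGTGGT. For ETS factors it was AGGAAGTG. An NF-kappaB motif and the box TATAAA completed the set. Of the listed genes, 3 cytotoxic granule genes are printed first because they share TGTGGT close to their start and a role in killing, and edgeR called Gzmb higher with age in Control livers and not Gzma or Prf1. The difference between these genes was not tested. Nkg7, of the granule membrane, also held TGTGGT and was called higher with age, but is not printed. Gzmb passed the filter on low counts only through aged libraries. Capitals mark the motif on either strand, so that ACCACA is TGTGGT read from the other strand.
Gzmb, chr14:56262335-56262484, minus strand: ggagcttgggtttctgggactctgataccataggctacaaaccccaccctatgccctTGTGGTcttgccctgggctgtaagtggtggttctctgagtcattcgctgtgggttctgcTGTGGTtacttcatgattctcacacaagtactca
Gzma, chr13:113100982-113101131, minus strand: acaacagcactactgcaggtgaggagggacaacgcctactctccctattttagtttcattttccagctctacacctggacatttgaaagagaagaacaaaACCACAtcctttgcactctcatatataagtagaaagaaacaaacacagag
Prf1, chr10:61297686-61297830, plus strand: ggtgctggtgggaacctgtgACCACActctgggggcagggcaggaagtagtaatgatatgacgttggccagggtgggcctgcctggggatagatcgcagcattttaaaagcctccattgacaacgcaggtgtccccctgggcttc
TGTGGT was found in 7 of the 13 T and NK cell genes with a window (Zap70, Lck, Klrb1c, Nkg7, Prf1, Gzma and Gzmb), in none of the 6 B and plasma cell genes, and in 16.76% of all 32851 windows. Gzmb held 2 copies.

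A pair of further stretches shows the only other kinds of match. AGGAAGTG was found in 3 T and NK cell genes (Lck, Cd3d and Cd3e) and in Cd79a, and in 4.07% of all windows. TGCAAAT was found in Pou2af1, whose protein is a coactivator that works with octamer-binding factors in B cells, and in 4.02% of all windows.
Cd3d, chr9:44981566-44981685, plus strand: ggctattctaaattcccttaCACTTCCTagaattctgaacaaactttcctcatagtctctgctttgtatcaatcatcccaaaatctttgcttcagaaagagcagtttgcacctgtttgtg
Pou2af1, chr9:51213440-51213539, plus strand: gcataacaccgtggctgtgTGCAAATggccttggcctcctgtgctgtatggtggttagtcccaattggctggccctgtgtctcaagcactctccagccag
CACTTCCT is AGGAAGTG on the other strand. ATGCAAAT was in none of the matched genes and in 1.74% of all windows. For ATGCAAA the share of all windows was 4.63%, for the NF-kappaB motif 0.16% and for TATAAA 13.62%, again with none of the matched genes. These matches describe the letters only.

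In Control females, 20 of the 26 genes rose between 6 and 24 months and 1 fell at an adjusted p under 0.05 in edgeR's quasi-likelihood test, where 28.0% of 12617 tested genes were called (16.7% higher and 11.4% lower). T and NK cell genes had 11 higher and 1 lower of 16, with a median log2 fold change of 1.78, and B and plasma cell genes had 9 higher of 10, with a median of 3.0; the median of all genes was 0.03. In whole tissue, more cells of a type and more RNA per cell cannot be told apart. The groups of every one of these genes overlapped in range, and for some genes several aged livers were at the level of young ones. For Cd79b, aged Control replicates 3, 5, 6 and 8 were at 1.59, 2.53, 2.44 and 2.34 CPM, against a young maximum of 2.61 CPM. Of the 26 genes, 20 would have passed the low-count filter in 6-month libraries alone, while Cd3d, Cd8a, Cd8b1, Cd6, Gzmb and Mzb1 passed only through the aged libraries, so that a difference in these 6 is partly set by the filter. Of the other 20 genes, 15 were higher and 1 lower.

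**Figure D1:**
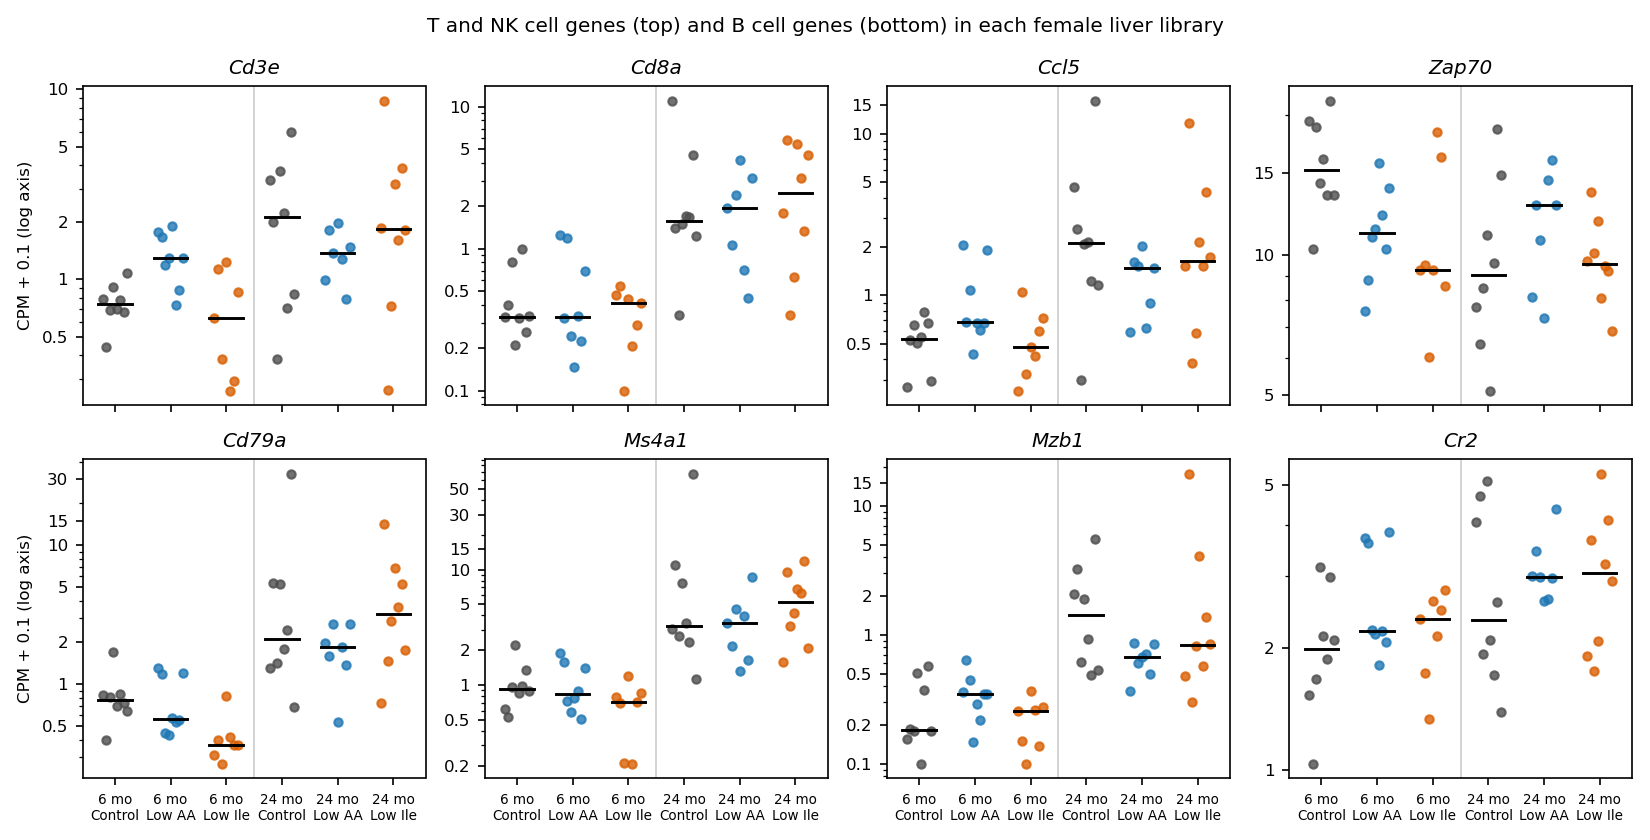
CPM + 0.1 on a log axis for 4 T and NK cell genes (top) and 4 B cell genes (bottom) in each female library; dots are libraries and bars are group medians. The 24-month groups lie higher than the 6-month groups for Cd8a, Ccl5, Cd79a, Ms4a1 and Mzb1, with overlap, while Zap70 and Cr2 do not show that shift.

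The CD3 chains, which are among the signalling chains of the T cell receptor, lie together on chromosome 9 of GRCm38 (Cd3g at 44969572 to 44980431, Cd3d at 44981786 to 44987339 and Cd3e at 44998740 to 45009627). Cd3e ranged from 0.341 CPM through a median of 0.642 to 0.975 CPM in 6-month Control livers, and from 0.279 through 2.03 to 5.84 CPM at 24 months. The aged range reached both below and above the young one. The fitted log2 difference was 1.79 ± 0.50 (SE), with an edgeR adjusted p of 0.00693. Cd3g rose by 2.05 ± 0.56 (edgeR adjusted p 0.00596), and Cd3d, at a median of 0.256 CPM in young and 0.567 CPM in aged Control livers, differed by 1.42 ± 0.60 without passing the test (adjusted p 0.0696).

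The coreceptor genes were not all called. Cd8a and Cd8b1, the chains of the CD8 coreceptor of cytotoxic T cells, are neighbours on chromosome 6 (71373427 to 71379173 and 71322788 to 71337494). Cd8a went from 0.11, 0.232 and 0.886 CPM (lowest, median, highest) in young to 0.239, 1.47 and 10.9 CPM in aged Control livers. Replicate 1 of the aged group was the highest and 1 aged liver lay among the young. The difference was 3.0 ± 0.67 on the log2 scale (edgeR adjusted p 0.00117). Cd8b1 ran from 0 to 0.136 CPM in young and from 0.08 to 2.82 CPM in aged Control livers, with overlap; it rose by 3.98 ± 0.96 (edgeR adjusted p 0.00217). Cd4, the coreceptor of helper T cells, which some macrophages also express, had 0.468, 1.09 and 1.5 CPM in young and 0.199, 1.23 and 3.47 CPM in aged Control livers. Its medians were close and its difference of 0.41 ± 0.47 did not pass (edgeR adjusted p 0.553). Cd8a and Cd8b1 passed the low-count filter only through aged libraries, so that their differences are partly set by it. Cd4 passed in 6-month libraries alone as well. The difference between these genes was not tested.

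Among adhesion and costimulatory receptors, Cd2 rose by 2.08 ± 0.45, Cd6 by 2.43 ± 0.57 and Cd28 by 1.43 ± 0.46 (edgeR adjusted p 0.000976, 0.00169 and 0.0171). The Cd28 call was lost without aged Control replicate 5, and the difference of Cd2 was 1.30 without replicate 7. Cd6 passed the low-count filter only through aged libraries, so that its difference is partly set by it. Lck, the kinase that starts receptor signalling, went from 0.524, 1.41 and 1.88 CPM to 0.717, 3.9 and 8.41 CPM and rose by 1.49 ± 0.39 (edgeR adjusted p 0.00428). Most aged Control livers lay above the young range, and the lowest did not.

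Zap70, the kinase next in the same pathway, was the 1 gene called lower. It ranged from 10.2 through 15.1 to 21.4 CPM in 6-month Control livers and from 5.01 through 8.94 to 18.5 CPM at 24 months. The medians of Cd3e and Lck in 6-month Control livers were 0.642 and 1.41 CPM, far below that of Zap70. Which cells the Zap70 reads came from was not tested. The aged group lay lower, with overlap, and the fitted difference was -0.64 ± 0.22 (edgeR adjusted p 0.0242). The age call of Zap70 was lost on leaving out any of aged Control replicates 1, 2 and 5 or young Control replicate 7. Its age difference did not pass on Low Isoleucine (-0.16 ± 0.22, edgeR adjusted p 0.696) or on Low Amino Acid (0.05 ± 0.22, edgeR adjusted p 0.948).

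The cytotoxic genes whose promoters are printed above were not all called. Gzmb, a granzyme, went from 0.068, 0.205 and 0.553 CPM to 0.22, 0.796 and 5.88 CPM in Control livers and rose by 2.41 ± 0.67 (edgeR adjusted p 0.00635). Aged Control replicate 7 was the highest, and without it the difference was 1.59 and the call was lost. Nkg7, a granule membrane protein, rose by 1.76 ± 0.55 (edgeR adjusted p 0.0145), a call that also rested on that library. Gzma, the other granzyme, had medians of 0.426 CPM in young and 0.294 CPM in aged Control livers, and its difference of 0.60 ± 0.57 did not pass (edgeR adjusted p 0.463). Prf1, the pore-forming perforin, had medians of 1.88 and 2.19 CPM and a difference of 0.30 ± 0.37 (edgeR adjusted p 0.58). Its highest aged Control value, 6.65 CPM, was in replicate 3, where Gzma was at 0.04 CPM and Nkg7 at 0.318 CPM. In replicate 7, highest for Gzma and Nkg7, it was at 3.86 CPM. Which cells the Prf1 reads came from was not tested. Ccl5, a chemokine released by activated T and NK cells, went from 0.172, 0.438 and 0.682 CPM to 0.199, 2.0 and 16.0 CPM and rose by 3.09 ± 0.63 (edgeR adjusted p 0.000576), with 1 aged liver inside the young range.

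The genes found by GENCODE symbol alone are given mainly as levels, because Cd5 and Klrb1c passed the low-count filter only through the aged libraries and Gzmk in neither age alone. Gzmk, a granzyme of memory CD8 T cells, was at a median of 0 CPM in young and 0.309 CPM in aged Control livers. Cd5, an inhibitory receptor of T cells, had medians of 0.175 and 0.689 CPM, with overlap. Klrb1c, an NK cell receptor, had medians of 0.27 CPM in young and 0.184 CPM in aged Control livers and differed by -0.21 ± 0.66 (edgeR adjusted p 0.841). Klrd1, another NK cell receptor, did not reach the low-count filter and had medians of 0.134 CPM in young and 0.18 CPM in aged Control livers.

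B cell receptor genes rose as well. Cd79a, a signalling chain of the B cell receptor (chromosome 7, 24897381 to 24902197), went from 0.298, 0.669 and 1.62 CPM in young to 0.586, 2.03 and 32.5 CPM in aged Control livers. Its partner Cd79b (chromosome 11, 106311341 to 106314762) went from 0.573, 1.06 and 2.61 CPM to 1.59, 2.95 and 44.8 CPM. Both groups overlapped, and a single aged liver, replicate 7, stood far above the rest. The differences were 3.07 ± 0.61 and 2.94 ± 0.59 (edgeR adjusted p 0.000455 and 0.000457). Without replicate 7 the differences were 1.75 and 1.80 and were still called.

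Ms4a1, which encodes CD20 on mature B cells (chromosome 19, 11249675 to 11266241), had 0.426, 0.823 and 2.13 CPM in young and 1.01, 3.17 and 67.6 CPM in aged Control livers. It rose by 3.66 ± 0.63 (edgeR adjusted p 0.000141), or by 2.17 without replicate 7. Cxcr5, the receptor that draws B cells to follicles, rose by 3.21 ± 0.56 from a median of 0.271 CPM to 1.29 CPM (edgeR adjusted p 0.000155). Pax5, the transcription factor that maintains B cell identity, rose by 3.23 ± 0.70. Blk, a B cell kinase, and Cd22, an inhibitory receptor, rose by 2.37 ± 0.51 and 2.21 ± 0.55 (edgeR adjusted p 0.001 for Pax5, 0.000885 for Blk and 0.00286 for Cd22). Without replicate 7 the differences were 2.02 for Cxcr5, 1.99 for Pax5, 1.23 for Blk and 1.75 for Cd22, and each was still called.

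Mzb1, a chaperone of antibody assembly and one of the genes that passed the filter only through aged livers, went from 0, 0.082 and 0.472 CPM in young to 0.392, 1.31 and 5.41 CPM in aged Control livers. The lowest 2 aged livers lay below the highest young one and the others above it. It rose by 3.26 ± 0.74 (edgeR adjusted p 0.00135), and Pou2af1 rose by 2.87 ± 0.63 (edgeR adjusted p 0.00105). Cr2, a complement receptor of B cells and follicular dendritic cells, was the exception in its class: it had medians of 1.88 CPM in young and 2.24 CPM in aged Control livers, and a difference of 0.54 ± 0.26 that did not pass (edgeR adjusted p 0.118).

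Other lymphocyte genes outside the list, grouped on a separate list, mostly moved in the same direction. In that comparison 16.7% of all tested genes were called higher and 11.4% lower. These genes were chosen with earlier results of these data known, so they are no independent support. Of 23 tested T and NK cell genes, 12 were higher and 1 lower in aged Control livers, with a median log2 difference of 1.02; Bcl11b, a T cell transcription factor, rose by 2.38 ± 0.49 and Il7r, the receptor of a T cell survival signal, by 2.03 ± 0.44 (edgeR adjusted p 0.000583 and 0.000963). Of 19 tested B and plasma cell genes, 17 were higher and 1 lower, with a median of 2.10. Fcrl5 rose by 4.20 ± 0.97 and Spib, a B cell transcription factor, by 3.77 ± 0.79 (edgeR adjusted p 0.0015 and 0.00076). Bcl11b and Fcrl5 had means of 0.346 and 0.115 CPM in young Control livers. Whether genes so scarce there passed the low-count filter only through aged libraries was not checked. Among 9 lymphoid chemokines and receptors, 4 were higher and 1 lower, led by Cxcl13, the ligand of Cxcr5, at 5.13 ± 1.30 (edgeR adjusted p 0.00326).

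Markers of other cells moved with age in the same libraries. All 14 neutrophil genes were called higher in aged Control livers, with a median log2 difference of 5.45. Their summed level ran from 9.34 to 35.9 CPM in young and from 17.5 to 3949 CPM in aged livers. Mpo, Ltf and Elane, of largest difference, had means of only 0.138, 0.288 and 0.038 CPM in young Control livers. Genes so scarce there may have passed the low-count filter only through aged libraries, which was not checked for this list. The neutrophil counts for age, here and on the other diets, may thus be partly set by the filter. Pan-leukocyte genes had 13 of 14 higher (median 1.67; summed 153 to 212 CPM in young and 178 to 989 CPM in aged), MHC class II genes 4 of 4 (median 1.66; summed 87.9 to 180 CPM and 43.1 to 1294 CPM), and Kupffer cell genes 9 higher and 1 lower of 13 (median 1.13; summed 418 to 1009 CPM and 433 to 3263 CPM). Cell division genes had 7 of 9 higher (median 2.12; summed 5.25 to 33.8 CPM and 11.5 to 117 CPM). Of 6 hepatocyte genes, 1 was lower and none higher, and of 6 endothelial genes none was called. The erythroid genes Hbb-bs and Alas2 were lower, at -1.345 ± 0.34 and -0.63 ± 0.22 (edgeR adjusted p 0.00327 and 0.0302). Called stellate and fibroblast genes included Col1a1 and Col3a1, higher, and Reln, lower. Sox9 of the cholangiocyte list was higher. Of the dendritic cell list, the called genes of largest change, Itgax, Flt3 and Clec9a, were higher. The part of these cells in the difference of the lymphocyte genes was not tested.

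**Figure D2:**
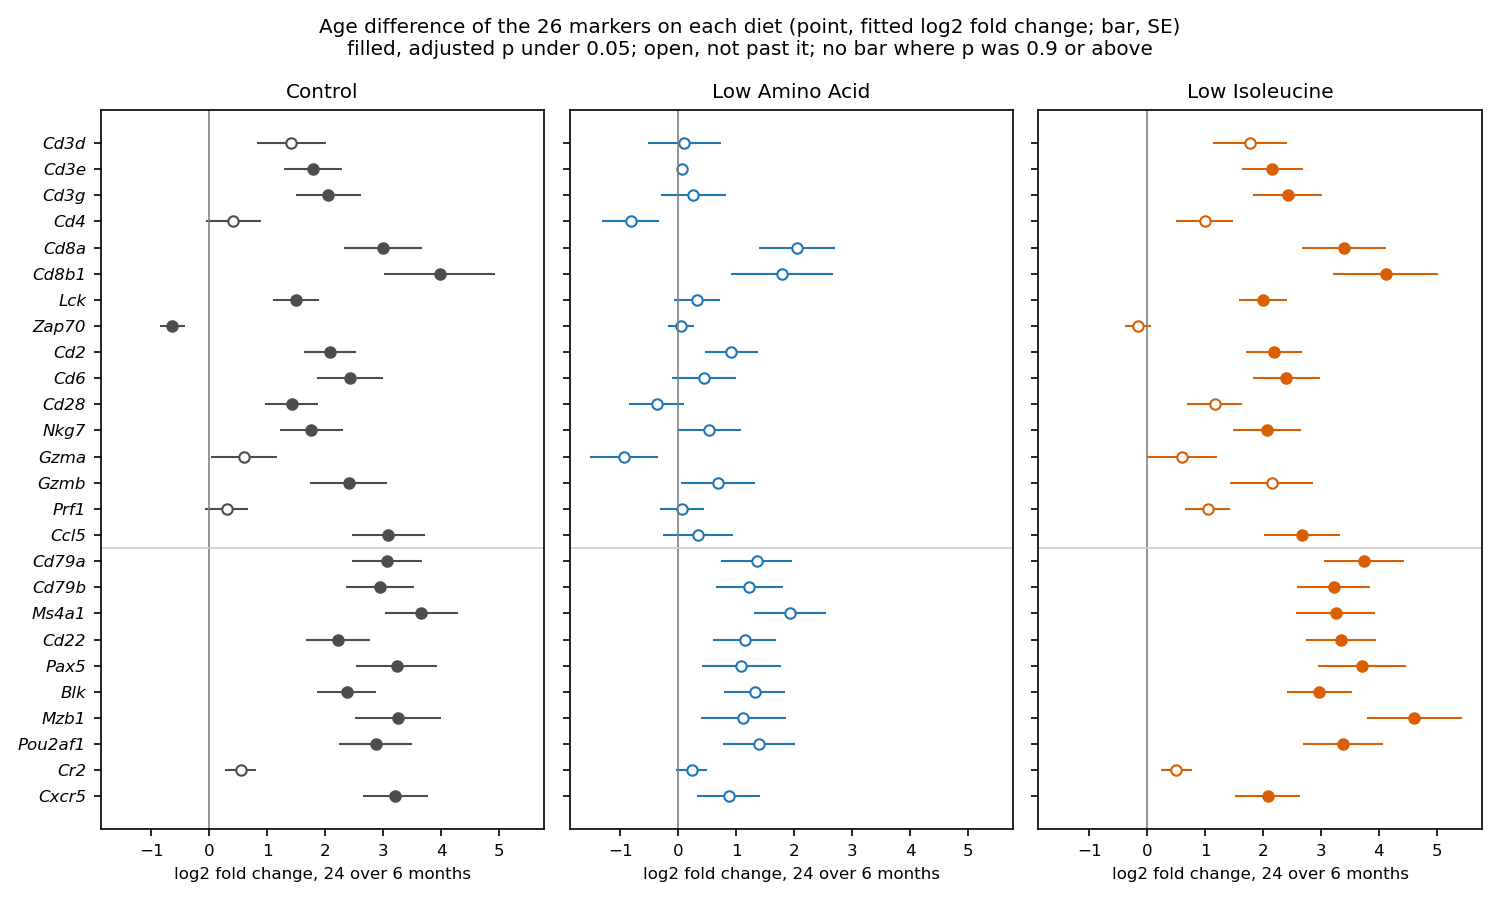
Fitted log2 fold change of each of the 26 genes, 24 over 6 months, on each diet, T and NK cell genes above the grey line and B and plasma cell genes below; bars are SE, filled points passed the adjusted p of 0.05. On Control 21 genes passed and on Low Isoleucine 18, and on Low Amino Acid none did.

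On Low Isoleucine, 18 of the 26 genes rose with age and none fell in edgeR's test. There, 7.34% of all tested genes were called (4.90% higher). Of the 20 genes that would have passed the filter in 6-month libraries alone, 14 were higher and none lower. Mzb1 and Cd8a, given below, passed it only through aged libraries, so that their differences are partly set by the filter. T and NK cell genes had 9 higher of 16 (median log2 difference 2.11) and B and plasma cell genes 9 of 10 (median 3.30), beside a median of 0.01 over all genes. Ms4a1 went from 0.107, 0.612 and 1.1 CPM at 6 months to 1.47, 5.13 and 11.8 CPM at 24 months. It rose by 3.25 ± 0.68 (edgeR adjusted p 0.00309). Mzb1 went from 0, 0.157 and 0.265 CPM to 0.202, 0.734 and 17.6 CPM, and the highest of these was replicate 2. It rose by 4.61 ± 0.82, and without replicate 2 by 2.98 (edgeR adjusted p 0.00134 and 0.011). Cd8a went from 0, 0.312 and 0.446 CPM to 0.242, 2.37 and 5.75 CPM, with overlap at the low end, and rose by 3.4 ± 0.73 (edgeR adjusted p 0.00364). Gzmb, called in Control livers, missed the threshold here at 2.15 ± 0.72 (edgeR adjusted p 0.0548), and so did Cd28 at 1.17 ± 0.47 (adjusted p 0.11). Leaving out aged replicate 2 took the count from 18 to 12, while the share of all genes called went to 3.06%.

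Of the 18, 5 were called without the 4 libraries that are absent from the authors' female table, which are aged Low Amino Acid replicates 2 and 4 and aged Low Isoleucine replicates 2 and 5. These genes were Cd8a, Cd79a, Cd79b, Ms4a1 and Blk, and the share of all genes called in that fit was 0.941%. The medians were then 1.41 for T and NK cell genes and 2.21 for B and plasma cell genes. On this diet MHC class II genes had 4 of 4 called higher with age (median 2.15), pan-leukocyte genes 12 of 14 (median 1.64), dendritic cell genes 4 of 8 (median 1.02) and Kupffer cell genes 2 higher and 1 lower of 13. Neutrophil genes had 2 of 14 called, with 14 of 14 positive and a median of 2.64. The part of these cells was not tested.

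On Low Amino Acid, none of the 26 genes was called with age by edgeR, where 1.61% of all tested genes were. At an unadjusted p under 0.05 there were 8 of the 26, against 13.8% of all tested genes; DESeq2 called 1 (Cd8a) and limma-voom with quality weights 2 (Ms4a1 and Blk). The B and plasma cell genes were all higher at 24 months as fitted, with a median of 1.19, while T and NK cell genes had a median of 0.30 with 13 of 16 positive. Ms4a1 went from 0.409, 0.727 and 1.78 CPM to 1.23, 3.35 and 8.54 CPM and differed by 1.93 ± 0.62 (edgeR adjusted p 0.109). Without aged Control replicate 7 in the fit it passed, at an adjusted p of 0.0213. Cd8a went from 0.047, 0.231 and 1.16 CPM to 0.345, 1.83 and 4.12 CPM and differed by 2.05 ± 0.66 (edgeR adjusted p 0.102). Cd3e had medians of 1.20 CPM at 6 months and 1.28 CPM at 24 months, and Ccl5 had 0.578 and 1.37 CPM with a difference of 0.35 ± 0.61 (edgeR adjusted p 0.847). Neutrophil genes had 8 of 14 called higher with age on this diet, and pan-leukocyte genes none of 14.

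Whether the age difference itself depended on diet was tested as an interaction. No gene of the 12617 passed in edgeR for either diet, and 0% were called. On Low Amino Acid the age difference was smaller than on Control for 25 of the 26 genes, 11 of them at an unadjusted p under 0.05 (10.3% of all genes), with adjusted p of at least 0.482. Ccl5 had the interaction of -2.74 ± 0.87, Cxcr5 -2.34 ± 0.78 and Cd28 -1.80 ± 0.66. Single aged Control livers stood high for these genes. Replicate 7 had Ccl5 at 16.0 CPM (next 4.58) and Cxcr5 at 14.6 CPM (next 3.13), and replicate 5 had Cd28 at 5.17 CPM (next 2.47). On leaving out each library, the age difference on Control fell as low as 2.155 for Ccl5, 2.017 for Cxcr5 and 0.985 for Cd28. DESeq2 and limma-voom called none of the 26. On Low Isoleucine, 19 of the 26 differences were larger and 7 smaller than on Control, none at an unadjusted p under 0.05, where 8.5% of all genes were. The 2 interactions share the Control libraries.

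At 24 months, Low Amino Acid against Control had 0 of the 26 called by edgeR, where 0.745% of all genes were, and 12 at an unadjusted p under 0.05 (16.9% of all genes); DESeq2 called 1, Cd79a, and limma-voom none. Of the 26, 23 were lower, with medians of -0.90 for T and NK cell genes and -1.55 for B and plasma cell genes beside -0.03 over all genes. Cd79a had 0.438, 1.75 and 2.63 CPM on Low Amino Acid and 0.586, 2.03 and 32.5 CPM on Control. The medians were near each other and the Control range was stretched by replicate 7. The fitted difference was -1.85 with an edgeR adjusted p of 0.107. Without aged Control replicate 7 and aged Low Isoleucine replicate 2 the medians of the classes were -0.50 and -0.36. Pan-leukocyte genes were lower in 14 of 14, with a median of -0.84 and none called, and neutrophil genes in 14 of 14, with a median of -0.77 and none called.

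Low Isoleucine against Control at 24 months had 0 of the 26 called by edgeR, where 6.48% of all genes were, and 1 at an unadjusted p under 0.05 (22.4% of all genes); DESeq2 and limma-voom called none. The class medians were -0.02 and -0.05, beside -0.02 over all genes. Ms4a1 was the lowest at -1.14 (edgeR adjusted p 0.22), with a range of 1.47 to 11.8 CPM on Low Isoleucine and 1.01 to 67.6 CPM on Control. Of 14 neutrophil genes, 3 were called lower on Low Isoleucine, with a median of -2.47 over the list, among them S100a8 at -3.67 ± 0.92 (edgeR adjusted p 0.0116).

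Low Isoleucine against Low Amino Acid at 24 months had 0 of the 26 called by edgeR, where 1.25% of all genes were, and 16 at an unadjusted p under 0.05 (15.8% of all genes); DESeq2 called 1, Mzb1, and limma-voom none. Of the 26, 24 were higher on Low Isoleucine, with medians of 1.09 and 1.27. Mzb1 had 0.268, 0.57 and 0.769 CPM on Low Amino Acid and 0.202, 0.734 and 17.6 CPM on Low Isoleucine. The ranges overlapped, and the difference of 2.5 ± 0.69 had an edgeR adjusted p of 0.0547. Without the 2 aged libraries of highest B cell level the class medians were 0.43 and 0.52.

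At 6 months edgeR called no member in the 3 diet comparisons. Low Amino Acid against Control had 0 of the 26 called by edgeR (0% of all genes), 1 at an unadjusted p under 0.05 (8.1% of all genes), and class medians of 0.56 and 0.28. Low Isoleucine against Control had 0 called (0.0238% of all genes), 1 at an unadjusted p under 0.05 (10.1% of all genes), and medians of -0.22 and -0.47. Low Isoleucine against Low Amino Acid had 0 called (0.0159%), 1 at an unadjusted p under 0.05 (10% of all genes), and all 26 lower, with medians of -0.70 and -0.70 beside 0.00 over all genes. DESeq2 and limma-voom called none in the 3 comparisons. In the last of them MHC class II genes had a median of -1.11 and Kupffer cell genes -0.80, with none called. Of the dendritic cell list, only Cd207 was called there, lower by -2.01 ± 0.34 (edgeR adjusted p 0.00679). Cd207 was also called lower on Low Isoleucine against Control (-1.69 ± 0.34, edgeR adjusted p 0.0456). The smallest adjusted p among the members was that of Zap70 in both comparisons with Control (0.574 and 0.4): its medians were 15.1 CPM on Control, 11.1 CPM on Low Amino Acid and 9.19 CPM on Low Isoleucine, with overlapping ranges.

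**Figure D3:**
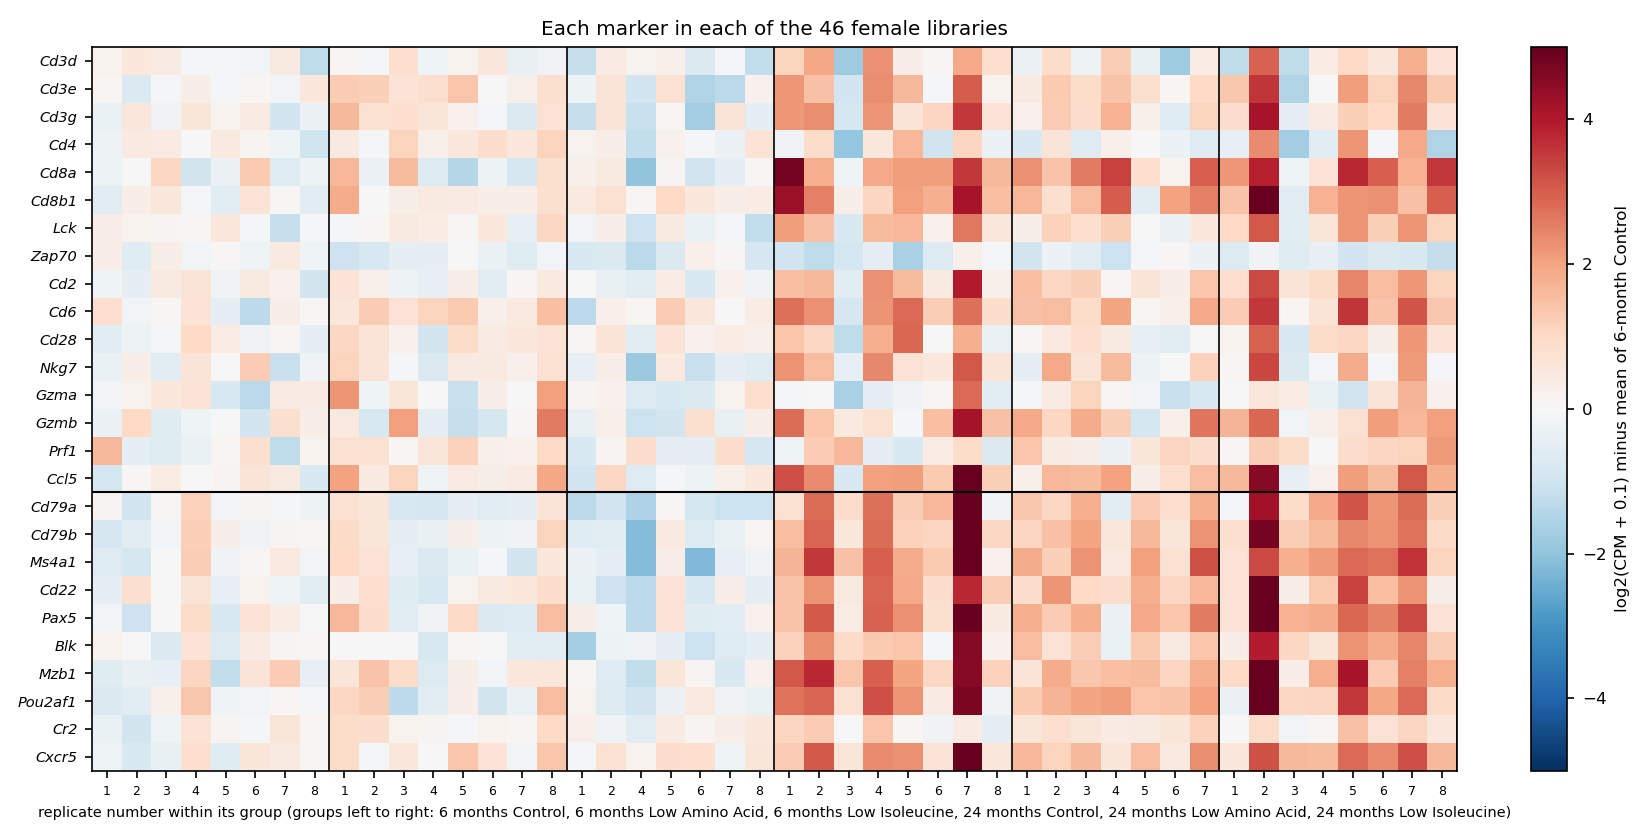
Each of the 26 genes (T and NK cell genes above the black line, B and plasma cell genes below) in each of the 46 female libraries, as log2(CPM + 0.1) minus the mean of 6-month Control livers; colour is limited to 5 log2 units each way. Red columns in the aged groups are single livers, above all Control replicate 7 and Low Isoleucine replicate 2.

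The 2 classes were compared library by library, as the mean of log2(CPM + 0.1) over a class minus that of 6-month Control livers. B and plasma cell means ran from 0.41 through 1.62 to 4.56 in aged Control livers, from 0.54 through 1.34 to 2.01 on Low Amino Acid and from 0.45 through 1.66 to 4.27 on Low Isoleucine. T and NK cell means ran from -0.65 through 1.24 to 2.78, from 0.03 through 0.86 to 1.14 and from -0.43 through 1.05 to 3.04 in the same groups. At 6 months the B class ran from -1.13 to 0.98 and the T and NK class from -0.74 to 1.0 over the 3 diets. Every aged liver was therefore above the 6-month Control mean for B and plasma cell genes, and some aged Control and Low Isoleucine livers were below it for T and NK cell genes. The B mean minus the T and NK mean had medians of 0.87, 0.71 and 0.97 in aged Control, Low Amino Acid and Low Isoleucine livers and of -0.08, -0.18 and -0.08 at 6 months. The ranges of young and aged libraries overlapped, from -0.58 to 0.80 and from -0.21 to 1.78 in Control livers. These class means share their libraries and carry no test.

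**Figure D4:**
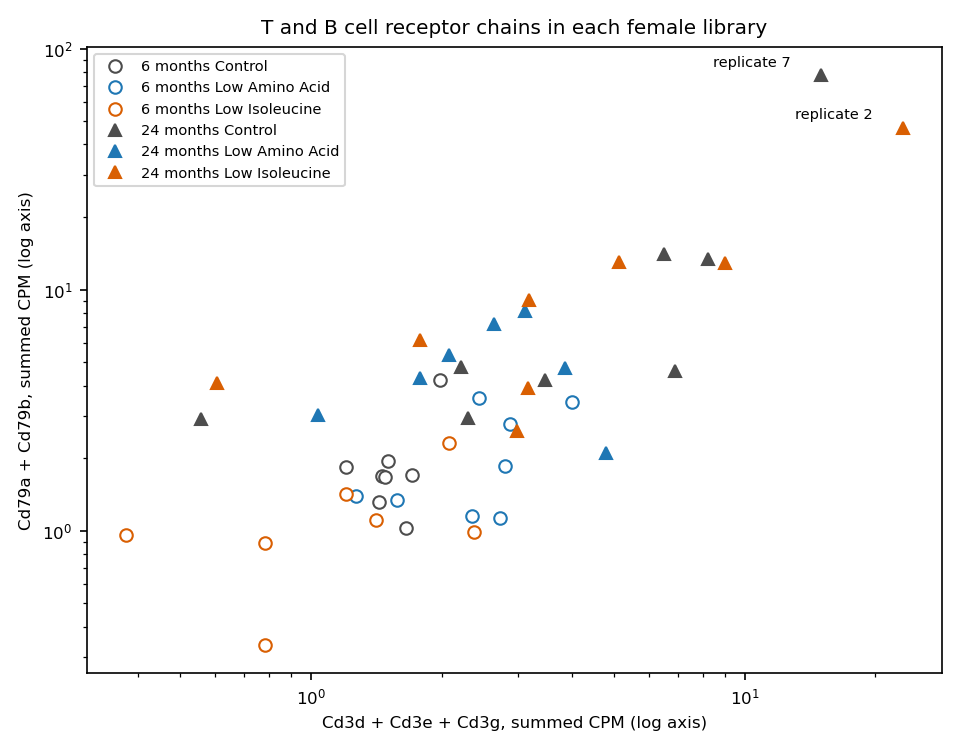
Summed CPM of the T cell receptor chains (Cd3d, Cd3e, Cd3g; horizontal, log axis) against that of the B cell receptor chains (Cd79a, Cd79b; vertical, log axis) in each female library, 6 months open circles and 24 months filled triangles. The Cd79 sum reached 77.3 CPM in aged Control replicate 7 and 47 CPM in aged Low Isoleucine replicate 2, and at most 14.1 CPM in other libraries.

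A pair of aged livers is described here: in Control and Low Isoleucine, the liver with the highest mean of B and plasma cell genes. They were chosen by these values, so that high B and plasma cell genes in them follow in part from the choice. In aged Control replicate 7, the 10 B and plasma cell genes were at a median of 14.6 times the median of the other aged Control livers (range 1.26 to 22.7), and 9 of them were highest there. Its T and NK cell genes were at a median of 3.14 times, with 9 of 16 highest. In aged Low Isoleucine replicate 2, B and plasma cell genes were at a median of 8.11 times the other livers of its group, with 7 of 10 highest, and T and NK cell genes at 5.16 times, with 13 of 16 highest.

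Of the B and plasma cell genes, 7 were the highest of their group in both livers (Cd79a, Cd79b, Cd22, Pax5, Blk, Mzb1 and Pou2af1), as were 8 of the T and NK cell genes. The ratios differed between the livers. In Control replicate 7, Ms4a1 was at 67.6 CPM, 22.7 times the median of the others, and Cxcr5 at 14.6 CPM, 17.8 times, while Mzb1 was 6.55 times. In Low Isoleucine replicate 2, Mzb1 was at 17.6 CPM, 24.3 times the others, and Cd22 at 74.4 CPM, 16.9 times, while Ms4a1 was at 9.36 CPM, 2.28 times, below the highest of the other livers (11.8 CPM). Cd8b1 was 33.1 times the others there and Cd8a 3.42 times. Summed cell division genes were 117 and 149 CPM in these 2 livers, beside 108 CPM in aged Control replicate 4 and a next highest of 62.4 CPM in the aged Low Isoleucine group. Pan-leukocyte sums were 989 and 860 CPM, beside next highest values of 671 and 639 CPM. Kupffer cell sums were 3263 CPM, the highest of its group, and 1386 CPM, the second highest of its group. MHC class II sums were 1294 and 1360 CPM beside group medians of 289.7 and 200.2 CPM. Their part was not tested.

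Without both libraries, an alternative chosen after the data were seen, 19 of the 26 genes were higher and 1 lower with age on Control (24.2% of all genes called), with class medians of 1.36 for T and NK and 1.89 for B and plasma cell genes. On Low Isoleucine 15 were higher (3.97% of all genes called), 6 T and NK and 9 B and plasma cell genes, with medians of 1.54 and 2.4. On Low Amino Acid 2 were called, Ms4a1 and Blk (1.78% of all genes called).

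**Figure D5:**
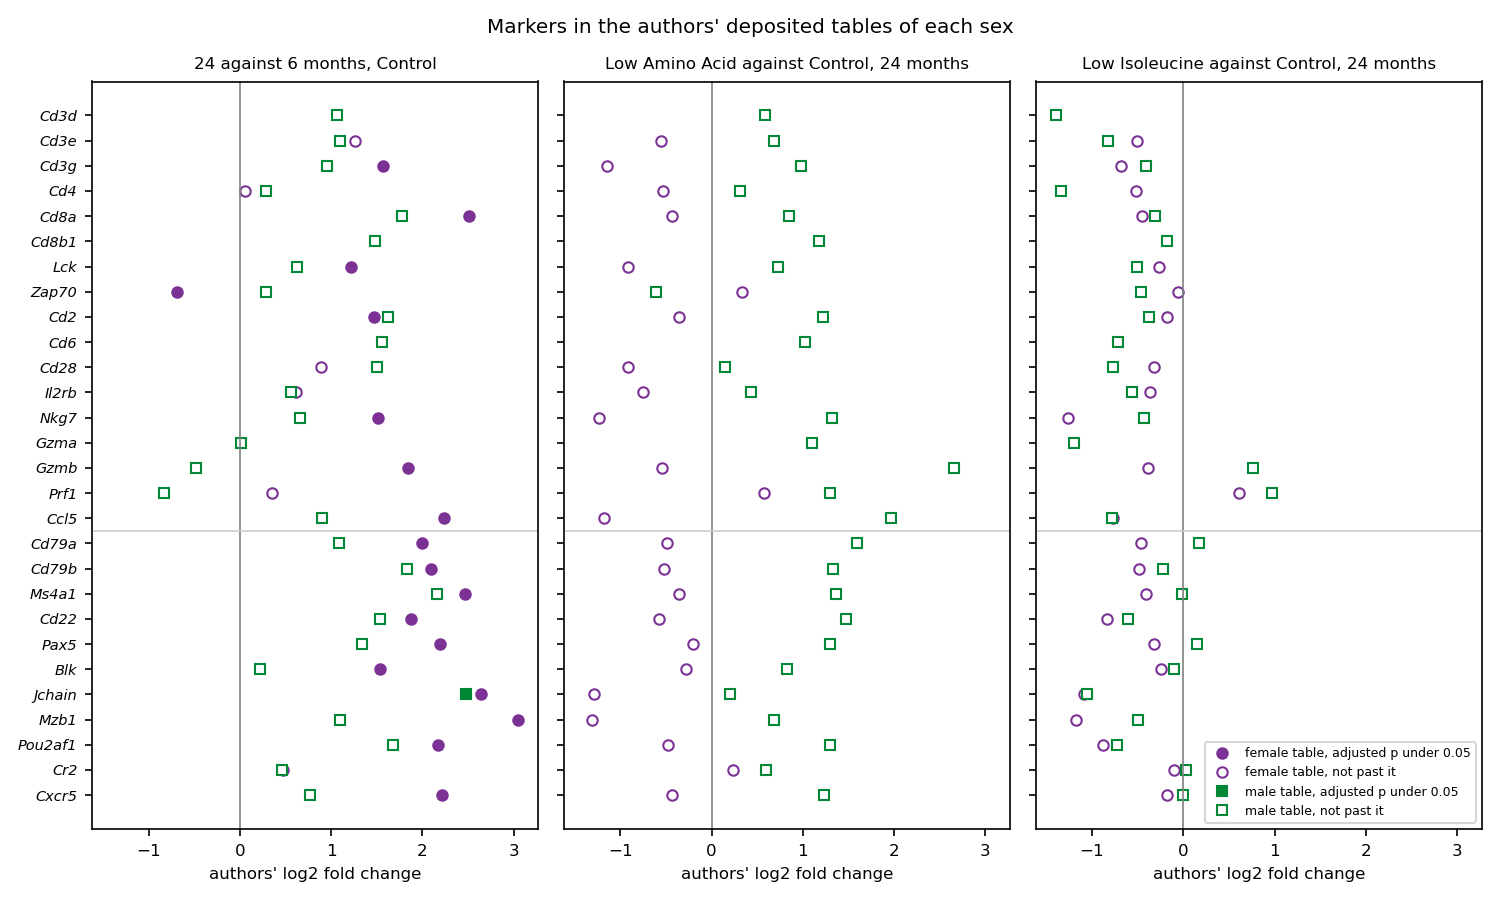
Log2 fold changes of the listed genes in the authors' deposited tables of females (circles) and males (squares), for age on Control and for each restricted diet at 24 months; filled symbols had an adjusted p under 0.05 there. On Low Amino Acid at 24 months most female values are negative and most male values positive, and none passed the threshold.

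Males were seen only through the authors' deposited table, and the sources used here do not give its model or libraries. For 24 against 6 months on Control, the authors' deposited table for females called 7 of 13 listed T and NK cell genes higher and 1 lower and 10 of 11 B and plasma cell genes higher, where 23.5% of its genes were called. The authors' deposited table for males called 0 of 17 T and NK cell genes and 1 of 11 B and plasma cell genes, Jchain at 2.48 (adjusted p 0.00458), where 20.0% of its genes were called. In the authors' deposited table for males the median log2 fold changes were 0.90 and 1.34, with 15 of 17 and 11 of 11 positive, and in that for females they were 1.26 and 2.17. The authors' deposited table for females gave Jchain at 2.64 (adjusted p 0.0202) and Il2rb at 0.62 (adjusted p 0.149). The difference between the sexes was not tested.

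Antigen receptor constant regions, the parts of antibodies and T cell receptors shared by all cells of a kind, were read from the same tables. The authors' deposited table for females had 7 of 11 immunoglobulin constant genes higher at 24 months on Control, with Igkc, the kappa light chain, at 3.70 (adjusted p 0.000265) and Ighm, the IgM heavy chain, at 3.32 (adjusted p 5.1e-05). The authors' deposited table for males had 5 of 11 higher, with Igkc at 3.53 (adjusted p 0.00191) and Igha, the IgA heavy chain, at 2.53 (adjusted p 0.00968). For the T cell receptor, the authors' deposited table called 0 of 3 constant genes in either sex, with Trac at 1.47 in females (adjusted p 0.0717) and at 1.15 in males (adjusted p 0.325).

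For diet at 24 months, the authors' deposited table called none of the listed genes in either sex. The shares of all genes that the authors' deposited table called were 5.53% for females and 0.0563% for males on Low Amino Acid, and 9.24% and 0.0676% on Low Isoleucine. On Low Amino Acid the authors' deposited table for males had 16 of 17 T and NK cell genes and 11 of 11 B and plasma cell genes positive, with medians of 0.98 and 1.29. The authors' deposited table for females had 2 of 13 and 1 of 11 positive there, with medians of -0.55 and -0.47. In the authors' deposited table Gzmb was at 2.66 (adjusted p 0.337) for males and at -0.55 (adjusted p 0.658) for females. On Low Isoleucine, medians in the authors' deposited table were -0.39 and -0.46 for females and -0.51 and -0.10 for males.

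At 6 months, the authors' deposited table for males called 1 listed gene, Zap70 on Low Amino Acid at -1.50 (adjusted p 0.00148), where 16.3% of its genes were called, and none on Low Isoleucine, where 21.1% were. The authors' deposited table for females called none on either diet, where 0.0116% and 0.0931% of its genes were called.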

How the data were processed

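Livers were sequenced as stranded libraries of polyadenylated RNA, per the labels' protocols. The submitters' processing notes name edgeR, limma, R 3.4.3 and the build GRCm38.p5; no aligner is named there. The gene table holds estimated counts per gene, deposited by the authors without normalization. Tables for each sex hold log2 fold changes and p-values, raw and adjusted, as the authors deposited them. Of 51912 gene lines, 34637 were left out because not every column was filled, and 17275 were used. The 45 male columns do not line up with the genes and were not used. Members and lists were chosen with earlier results of these data known.

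Estimated counts were rounded to whole numbers, filtered (filterByExpr, minimum count 10, 6 groups), scaled by TMM and fitted with a mean per group in edgeR 4.0.16 under R 4.3.3, with 46 libraries and 12617 genes. The quasi-likelihood test was adjusted by Benjamini-Hochberg over all genes, and an adjusted p under 0.05 is a call. The SE was recovered from the fold change and F statistic. The steps were tested on simulated data. CPM use TMM-scaled library sizes. A library's replicate number is a name only, and nothing in the labels states separate animals in words, so p-values measure the spread between these samples. All listed members were accounted for, and from each other list up to 3 called genes of largest change could be named. Alternatives were DESeq2 1.42.0 (test, and size factors), no filter, limma-voom with quality weights (limma 3.58.1), the compared groups alone, the sex-mismatched library kept, libraries left out by group of reasons, and each library left out in turn.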

Additional observations from a re-analysis of the deposited data

Results flagged for a closer look

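Within groups of 7 or 8 libraries, 168 sets of values on the log2(CPM + 0.1) scale were checked for a single library far from the rest, and chance marks about 1 set in 20; 8 were marked. High values were Gzma at 2.92 CPM in aged Control replicate 7 (next 0.348), Cd8b1 at 0.42 CPM in 6-month Low Amino Acid replicate 1 (next 0.15), Cd79a at 0.718 CPM in 6-month Low Isoleucine replicate 5 (next 0.32) and the Cd79 chain sum at 4.22 CPM in 6-month Control replicate 4 (next 1.95). Low values were Cd3d at 0.039 CPM in 6-month Control replicate 8 (next 0.205), Lck at 0.524 CPM in 6-month Control replicate 7 (next 1.23), Cd28 at 0.287 CPM in 6-month Low Amino Acid replicate 4 (next 0.74) and Cd79a at 0.438 CPM in 24-month Low Amino Acid replicate 4 (next 1.28).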

How the results depend on the processing

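No paired analysis was possible because the replicate numbers only follow the order of the samples. The counts of members called moved as follows. For age on Control the count was 21, between 19 and 22 on leaving out each library, and 15 both with limma-voom and with the compared groups alone. For age on Low Isoleucine it was 18, between 12 and 21 on leaving out each library, 12 with limma-voom, 13 with the compared groups alone and 5 without the libraries absent from the authors' female table. For age on Low Amino Acid it was 0, between 0 and 1 on leaving out each library, 1 with DESeq2, 2 with limma-voom, 4 with the compared groups alone and 2 without both libraries of highest B cell level, an alternative chosen after the data were seen. At 24 months, Low Amino Acid compared with Control gave 0, 1 with DESeq2 and 4 (Cd3d, Lck, Ccl5 and Mzb1, all lower) without the libraries absent from the authors' female table. Low Isoleucine compared with Control at that age gave 0, and 1 (Mzb1, lower) without those libraries. Low Isoleucine compared with Low Amino Acid gave 0, between 0 and 1 on leaving out each library and 1 with DESeq2, Mzb1 each time. The interaction of age with Low Amino Acid gave 0, and 1 (Ccl5) without the libraries absent from the authors' female table. No called fold change changed sign. The cause of these changes was not tested. What difference could be detected at this depth was not tested.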
